A study of Mus musculus with 99 samples.

Results

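The comparison set cortex of Grn knockout (KO) mice against cortex of wild-type (WT) mice at 6 months of age. It rested on 6 of the 99 arrays of the series, 3 KO and 3 WT, chosen by their labels for region, genotype and age. Each array was hybridised with total RNA from a dissected piece of brain of 1 animal and read with Illumina bead probes, which give 1 intensity per probe. The 3 WT animals were all female, while KO animals 1 and 2 were male and KO animal 3 was female. Heterozygous (Het) cortex of the same age came from 2 males and 1 female and is given beside the comparison. The labels gave the genotypes only as ko, het and wt, and named no strain, no construct and no treatment beyond standard housing.

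Grn encodes progranulin, a secreted glycoprotein that is carried into lysosomes by sortilin and prosaposin and cut there into granulin peptides. In the brain it is made by neurons and, at higher levels, by microglia, the resident phagocytes. Loss of 1 copy in people causes frontotemporal dementia, and loss of both causes a lysosomal storage disease of neurons, neuronal ceroid lipofuscinosis. Mice without progranulin are known for lipofuscin deposits and for microglia that take up an activated, phagocytic state with age.

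Values below are log2 intensities after background correction and quantile normalization, and a difference of 1 is a doubling. A difference is KO minus WT from a linear model (limma) that held all 35 cortex arrays and was adjusted for sex, with its standard error (SE). Array medians before normalization ran from 201 to 352 at 6 and 9 months and from 79.7 to 114 at 2 months, when other slides were used. Correlations between arrays of the same group ran from 0.981 to 0.991, and those between KO and WT arrays of 6 months from 0.983 to 0.992, and the 2 ranges overlapped. The sex-linked probes went against the label in 0 of the 9 cortex arrays of 6 months, and in 1 of the 35 cortex arrays, that of KO replicate 2 of 9 months. Most values of 9 months are followed by those without that animal, called the animal of doubtful sex. At 2 months KO replicate 2 and Het replicate 4 were high in cerebellum markers, and values of 2 months are followed by those without both arrays in most cases. Where a pair of values is said to be without the arrays in doubt, the first leaves out these arrays at 2 months and the second the animal at 9 months. In bulk tissue a fall in the number of cells of a type and a fall in RNA per cell cannot be told apart.

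Grn was lower in every KO array. Its level was 5.89, 5.96 and 6.29 in KO replicates 1, 2 and 3, against 8.92, 8.59 and 8.93 in the WT replicates, and the Het replicates gave 8.44, 8.17 and 8.61. The KO and WT groups lay far apart, and the Het group lay between them and overlapped WT. The fitted difference between KO and WT was -2.74 ± 0.20 (SE, n = 3 against 3; adjusted p = 1.1e-10). The Het difference from the same WT arrays was -0.38 and did not pass the test. In the KO arrays the Grn probe was brighter than 2.30%, 4.05% and 23.8% of all probes, which placed it in the dim end of each array, where a bead probe reads mostly background. The size of the fall is therefore limited by that floor, and it moved to -2.14 with no background correction and to -3.66 when arrays were scaled to their median in place of quantile normalization. Grn was also lower in KO cortex of 2 months (-3.09, and the same without the arrays high in cerebellum markers) and 9 months (-3.18, or -3.07 without the animal of doubtful sex) and in KO hippocampus (-3.29) and cerebellum (-2.65) of 6 months. Its differences in cortex of 6 months and of the other ages or regions did not differ by the test (adjusted p from 0.48 to 1).

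**Figure D1:**
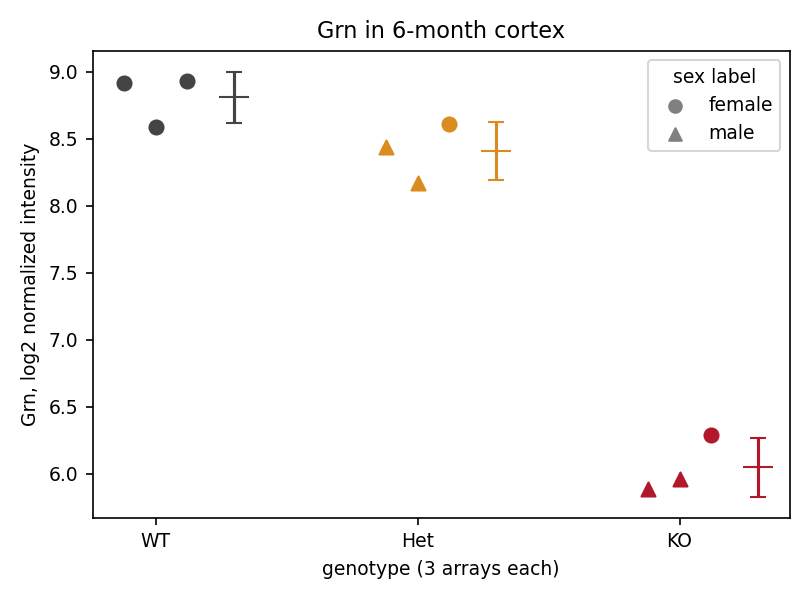
Grn level (log2 normalized intensity) in each cortex array of 6 months by genotype, circles for females and triangles for males, with the group mean and SD beside the points. The 3 KO arrays lie between 5.89 and 6.29, all below the 3 Het and 3 WT arrays.

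Grn was the only probe that passed the test. Of 12848 probes tested, 1 was called (0.00778%), with 0 higher in KO and 1 lower, at an adjusted p of 0.05. At an unadjusted p of 0.05, 1011 probes passed (7.87%). That count depended on the model. Of the same 12848 probes, 454 passed with no sex covariate, 479 with only the 6 arrays and no sex covariate, and 2658 with slide as a fixed block. Among genes, 453 above WT and 453 below passed it in the main fit (5.04% each way). Standing each gene by its probe with the smallest p raises these shares. Of 8984 genes, 419 (4.66%) had all 3 KO arrays above all 3 WT arrays and 512 (5.70%) had all 3 below, 10.4% together. With 3 arrays against 3 an exact permutation test of a single gene cannot go below p = 0.1. The same value, 0.1, is the share of single probes expected to lie apart if the labels made no difference. For genes the expected share is higher, since each gene stands by its probe with the smallest p. The 10.4% seen is close to 0.1, so groups that lie apart do not by themselves mark a gene as changed. The genes named next have the smallest p among genes whose groups lay apart, 10 above and 9 below beside Grn. None of these 19 passed the test (adjusted p from 0.15 to 0.58), and their values at 6 months are given as a description. In the arrays of 2 and 9 months, which held other animals, some of them did pass, and those tests are given beside them.

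Among the 10 named genes above WT were a complement gene, C4b, the lysozyme genes Lyz1 and Lyz2, and the macrophage gene Adgre1. C4b, the complement component that is cleaved to tag surfaces for uptake, read 8.74, 8.14 and 9.14 in KO and 7.74, 7.74 and 7.96 in WT. All KO arrays lay above all WT arrays, KO replicate 2 by the least, and the Het arrays (7.93, 7.67 and 7.74) lay at the WT level. The difference was 0.91 ± 0.18 in KO (adjusted p = 0.15) and 0.02 in Het. C4b rose in KO cortex of 9 months by 0.88 ± 0.18 (adjusted p = 0.037; 0.87 and adjusted p = 0.32 without the animal of doubtful sex), and the value at 2 months was 0.16 ± 0.12 (adjusted p = 0.92). The difference between 6 and 2 months, 0.75, did not pass the test (adjusted p = 0.83).

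Lysozyme, an enzyme that breaks bacterial walls, is encoded in the mouse by a pair of neighbouring genes on chromosome 10, Lyz1 and Lyz2. Lyz1 read 10.35, 10.02 and 10.52 in KO and 8.54, 8.94 and 9.34 in WT, with Het at 9.03, 8.81 and 8.57. KO lay above both other genotypes in every array, and Het overlapped WT. The difference was 1.27 ± 0.28 at 6 months (adjusted p = 0.18), 0.84 ± 0.19 at 2 months (adjusted p = 0.059; 0.85 and adjusted p = 0.13 without the arrays high in cerebellum markers) and 1.40 ± 0.27 at 9 months, where Lyz1 rose (adjusted p = 0.027; 1.28 and adjusted p = 0.34 without the animal of doubtful sex). Lyz2 read 7.35, 8.0 and 7.98 in KO and 6.62, 7.29 and 7.21 in WT, so that the groups lay apart by a narrow gap. Its difference was 0.81 ± 0.21 at 6 months (adjusted p = 0.54) and 1.13 ± 0.21 at 9 months, where it rose (adjusted p = 0.018; 0.88 and adjusted p = 0.46 without that animal). A second Lyz2 probe gave 0.84 ± 0.31 at 6 months.

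The starts of both lysozyme genes are shown because the 2 genes gave like differences and are close copies. Probes made for one may also read the other, which was not checked. The stretches lie mostly before the transcription start, so they cannot show what a probe reads. Each stretch covers 250 bases before the transcription start and 50 after it (RefSeq, GRCm38.p6, minus strand), Lyz1 at chr10:117292819-117293118 and Lyz2 at chr10:117282223-117282522. Capitals mark the match to AGGAAGT or its reverse complement ACTTCCT, searched on both strands, a core bound by ETS factors such as PU.1 of phagocytes.
Lyz1: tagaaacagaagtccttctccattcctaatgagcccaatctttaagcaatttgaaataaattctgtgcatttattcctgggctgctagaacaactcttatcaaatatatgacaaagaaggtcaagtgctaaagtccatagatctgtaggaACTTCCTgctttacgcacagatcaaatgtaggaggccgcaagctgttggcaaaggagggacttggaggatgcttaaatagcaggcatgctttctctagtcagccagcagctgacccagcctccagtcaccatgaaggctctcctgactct
Lyz2: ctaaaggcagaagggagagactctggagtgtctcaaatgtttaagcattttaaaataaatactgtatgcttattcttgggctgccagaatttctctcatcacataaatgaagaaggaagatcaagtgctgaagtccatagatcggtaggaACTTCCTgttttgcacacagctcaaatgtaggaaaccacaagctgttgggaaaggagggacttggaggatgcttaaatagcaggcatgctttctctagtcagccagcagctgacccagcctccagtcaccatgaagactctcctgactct
When aligned, the stretches shared 249 identical bases with 49 mismatches and 4 gap positions. Each held 1 match, and at least 1 match was found in 3072 of 32851 promoters of this length (9.35%). A match is a run of letters and no evidence of binding.

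Adgre1, which encodes the macrophage surface protein F4/80, read 8.01, 8.11 and 7.96 in KO and 7.19, 7.66 and 7.45 in WT. The KO arrays were close to each other and all above WT, with a difference of 0.64 ± 0.18 (adjusted p = 0.58). Another Adgre1 probe gave 0.18 ± 0.17 with overlapping groups. The values at 2 and 9 months were 0.29 and 0.35 (0.27 and 0.28 without the arrays in doubt) and did not pass the test.

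No complement gene and no microglial gene passed the test at 6 months. Of 8 complement genes tested, 8 had a difference above 0, and in 4 the KO arrays all lay above WT (50%, against 4.66% of all genes). Those were C4b and the 3 chains of C1q, the recognition protein of the classical pathway, with differences of 0.38 ± 0.14 for C1qa, 0.64 ± 0.25 for C1qb and 0.43 ± 0.20 for C1qc. C1qa read 8.48, 8.25 and 8.38 in KO against 7.84, 8.05 and 8.10 in WT. The median over the complement genes was 0.32, beside 0.0096 over all tested genes, and it was -0.06 in Het, 0.11 at 2 months and 0.33 at 9 months (0.16 and 0.19 without the arrays in doubt). The median lay between 0.25 and 0.41 under the alternatives run. The mean level of the list was 9.55, 9.24 and 9.57 in KO and 9.04, 9.05 and 9.17 in WT. This list and the gene lists below were chosen with earlier results of these data known. Their shares and medians are therefore given as a description and test nothing.

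Of 19 tested genes on a list for activated microglia and phagocytes, 18 had a difference above 0, with a median of 0.21. The KO arrays all lay above WT for 5 of them (26.3%, against 4.66% of all genes), which were Lyz1, Lyz2, Tyrobp, Trem2 and Lgals3. Since the probes of Lyz1 and Lyz2 may read both genes, these may not be separate members. Trem2, a microglial lipid receptor, gave 0.44 ± 0.18, and Tyrobp, the adaptor through which it signals, gave 0.50 ± 0.18. Tyrobp read 8.34, 7.99 and 8.49 in KO against 7.73, 7.72 and 7.86 in WT. Cd14, a receptor for bacterial lipid, was the member with all KO arrays below WT. The list's median was -0.02 in Het, 0.16 at 2 months and 0.36 at 9 months (0.18 and 0.27 without the arrays in doubt), and lay between 0.20 and 0.41 at 6 months under the alternatives. Of 14 genes of resting microglia, 10 lay above 0 and 4 below, with a median of 0.16 that fell to 0.05 without KO replicate 3 and was 0.31 with females only. All KO arrays lay above WT for 3 of them (21.4%, against 4.66% of all genes), Laptm5 (0.46 ± 0.18), Tgfbr1 (0.29 ± 0.14) and Aif1 (0.24 ± 0.15).

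Genes of reactive astrocytes, the glia that respond to injury, had a median of 0.19 over 11 members, 9 of them above 0, and of 0.09 without KO replicate 1 and WT replicate 2. Gfap, their filament protein, read 8.63, 9.01 and 8.99 in KO and 8.16, 8.41 and 8.34 in WT, a difference of 0.40 ± 0.25. KO and WT lay apart, and the Het difference of -0.53 went the other way. Gfap lies on chromosome 11, 7 places from Grn among the tested genes there. C4b belongs to this list as well as to the complement list. The 14 general astrocyte genes had a median of -0.05. Cytokines and NF-kB targets (7 tested, median -0.03) and interferon and antigen presentation genes (16 tested, median -0.13) had medians below 0.

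Lysosomal genes lay on both sides of 0. Of 29 hydrolases tested, 17 were above 0 and 12 below, with a median of 0.08 and 0 called. Man2b1, an alpha-mannosidase, read 10.22, 10.05 and 10.42 in KO against 9.80, 9.67 and 9.73 in WT (0.51 ± 0.16). Smpd1, the acid sphingomyelinase, read 10.26, 10.14 and 9.78 in KO against 10.59, 10.43 and 10.50 in WT (-0.60 ± 0.18). Dpp7 gave 0.33 ± 0.14, and Ids, an X-linked sulfatase, -0.73 ± 0.30 with overlapping groups. Among 20 lysosomal membrane genes the median was 0.11, and 0.02 without KO replicate 3. Cd63, a tetraspanin of late endosomes, had KO at 9.15, 8.91 and 9.18 above WT at 8.56, 8.69 and 8.46 (0.48 ± 0.14). Of 8 partners and receptors of progranulin, 0 were called and the median was 0.01. Psap, which encodes prosaposin, gave 0.18 ± 0.10 and Sort1, which encodes sortilin, -0.10 ± 0.12. The 20 autophagy genes had a median of -0.03.

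**Figure D2:**
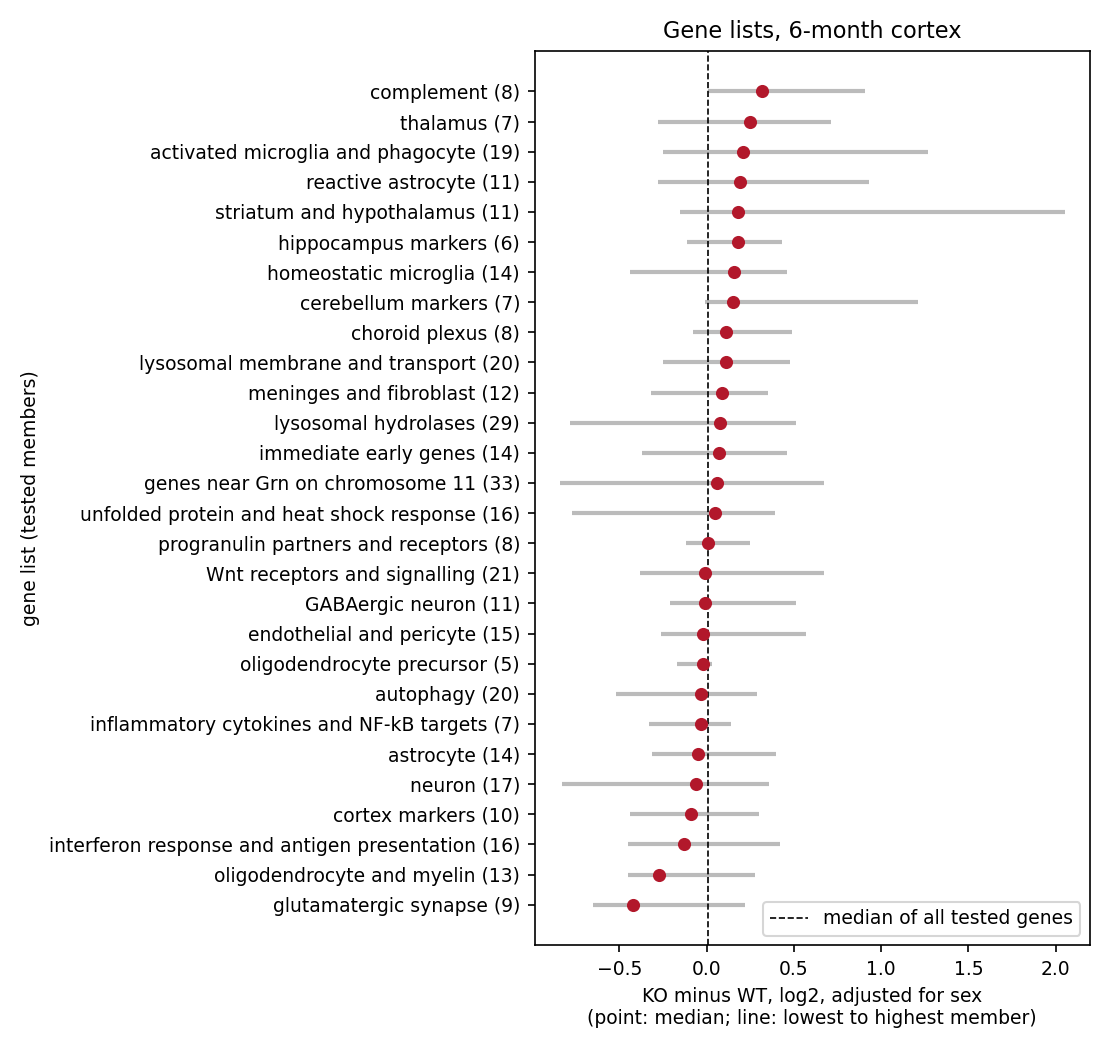
Median KO minus WT difference (log2, adjusted for sex) for each gene list with at least 5 tested members, with a line from the lowest to the highest member and the number tested in brackets. Complement genes have the highest median, 0.32, and genes of the glutamatergic synapse the lowest, -0.42. The dashed line is the median of all tested genes.

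Of the 19 named genes, 6 lie on chromosome 11, where Grn itself lies. Places are counted among the tested genes of that chromosome, starting from Grn. Fzd2, a Wnt receptor of the Frizzled family 2 places away, read 7.61, 8.03 and 7.93 in KO, 7.66, 7.50 and 7.63 in Het and 7.16, 7.16 and 7.21 in WT. The WT arrays lay below all Het and KO arrays. The difference was 0.67 ± 0.14 in KO (adjusted p = 0.16) and 0.40 in Het, and Fzd2 rose at 2 months by 0.86 ± 0.09 (adjusted p = 1.4e-06; 0.94 and adjusted p = 2.2e-07 without the arrays high in cerebellum markers), with 0.44 ± 0.14 at 9 months (adjusted p = 1; 0.35 without the animal of doubtful sex). Among all 21 Wnt receptors and signalling genes tested the median was -0.01, and Fzd2 alone had all KO arrays above WT (4.76%, against 4.66% of all genes).

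Lsm12, an RNA-binding protein gene 7 places to the other side, read 8.60, 8.46 and 8.40 in KO and 7.92, 7.79 and 8.03 in WT. Its Het arrays (8.30, 8.42 and 8.48) lay with KO. The difference was 0.58 ± 0.15 in KO and 0.50 in Het, and Lsm12 rose at 2 months (0.65 ± 0.10, adjusted p = 5.4e-04; 0.68 and adjusted p = 0.0013 without the arrays high in cerebellum markers) and at 9 months (0.90 ± 0.14, adjusted p = 0.0033; 0.78 and adjusted p = 0.17 without the animal of doubtful sex). Of its other probes, 1 gave 0.58 and 1 gave 0.32 at 6 months, but at 9 months they gave -0.01 and 0.21. Mpp3, a scaffold gene 10 places away, had KO at 9.76, 10.11 and 10.09 above WT at 9.53, 9.40 and 9.50 (0.52 ± 0.14), while its other probe gave -0.06.

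Krt12, a keratin best known from the cornea, read 8.17, 8.53 and 8.62 in KO and 9.68, 10.07 and 10.42 in WT. The Het arrays were spread between them at 9.79, 8.26 and 9.50. The difference was -1.61 ± 0.34 at 6 months (adjusted p = 0.16), and Krt12 fell at 2 months (-1.61 ± 0.23, adjusted p = 2.4e-04; -1.55 and adjusted p = 0.0012 without the arrays high in cerebellum markers) and at 9 months (-1.85 ± 0.33, adjusted p = 0.017; -1.59 and adjusted p = 0.32 without the animal of doubtful sex). Rapgefl1, which resembles guanine nucleotide exchange factors, read 10.57, 11.10 and 10.83 in KO and 11.77, 12.03 and 12.09 in WT. Its difference was -1.09 ± 0.29, and it fell at 2 months (-1.34 ± 0.19, adjusted p = 2.4e-04; -1.32 and adjusted p = 0.0012 without those arrays). Het replicate 2 was low in both genes, at 8.26 and 10.79, and the other Het arrays were not. A second Rapgefl1 probe gave 0.07 ± 0.22. Fn3krp, a kinase gene for sugar adducts on proteins that lies 173 places from Grn, read 8.04, 8.09 and 8.61 in KO and 6.74, 6.69 and 6.96 in WT, with Het at 7.0, 7.98 and 8.56. Its difference of 1.58 ± 0.39 was the largest of the named genes above WT, beside 0.97 ± 0.27 at 2 months and -0.16 ± 0.38 at 9 months (0.99 and -0.14 without the arrays in doubt). The WT levels of Fn3krp lay near 6.80, the mean above which a probe was tested, so the size of its difference may be limited by background.

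Over the 775 tested chromosome 11 genes other than Grn, 12.1% had an unadjusted p under 0.05, against 9.88% of the 8208 genes of other chromosomes. KO and WT groups lay apart in 13.4% and 10.1% of them. Of the 33 tested genes of a list of Grn's neighbours, 7 had all KO arrays above WT (21.2%, against 4.66% of all genes) and 1, Myl4, all below (3.03%, against 5.70%). The list was drawn up with earlier results of these data known. Myl4, an atrial myosin light chain gene, read 8.91, 9.09 and 9.31 in KO against 10.43, 10.06 and 9.96 in WT (-0.84 ± 0.26), and fell at 2 months (-1.33, adjusted p = 6.0e-05; -1.25 and adjusted p = 0.00067 without the arrays high in cerebellum markers).

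**Figure D3:**
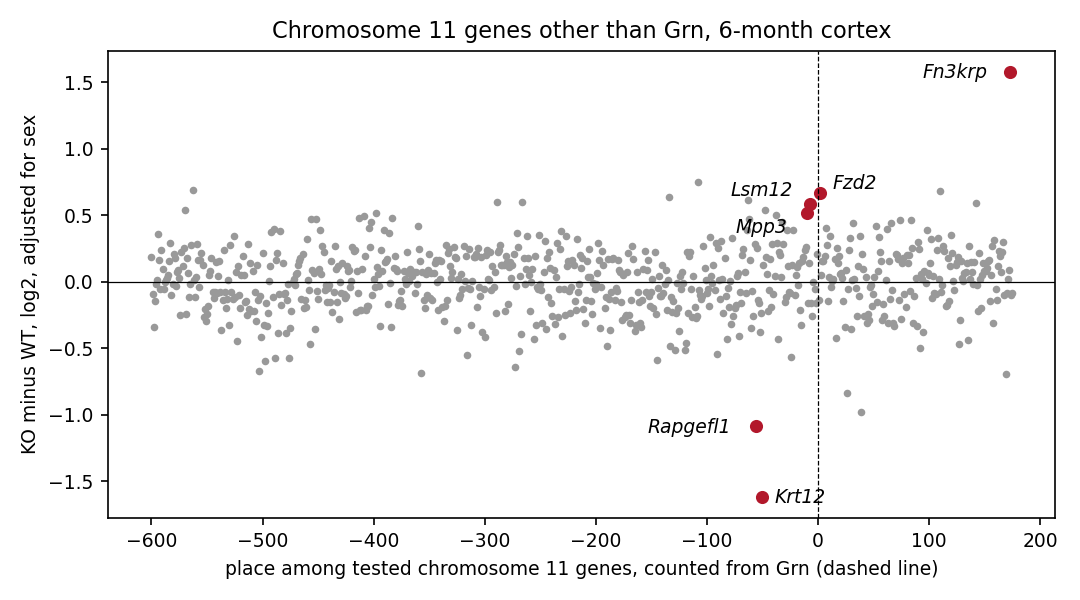
KO minus WT difference (log2, adjusted for sex) of the tested chromosome 11 genes other than Grn in cortex of 6 months, placed by their order counted from Grn (dashed line). Named genes are in red. Fzd2, Lsm12 and Mpp3 lie within 10 places of Grn at 0.52 to 0.67, and Krt12 and Rapgefl1 lie lowest, at -1.61 and -1.09.

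The other named genes above WT, Zxda and Abhd1, had values nearer 0 at the other ages. Zxda, a zinc finger gene, gave 0.89 ± 0.25 at 6 months, 0.00 at 2 months and 0.01 at 9 months (-0.03 and -0.02 without the arrays in doubt). Abhd1, a hydrolase-fold gene, gave 0.85 ± 0.23 at 6 months and -0.22 and 0.01 at the others (-0.22 and -0.23 without the arrays in doubt). Abhd1 was close to WT in KO replicate 1 (6.94, against 6.66, 6.66 and 6.72 in WT) and highest in the female KO replicate 3 (7.74). Its WT levels lay below 6.80, the mean above which a probe was tested, so its difference may also be limited by background.

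Below WT, 7 of the 9 named genes lie on other chromosomes than 11, and several have known roles in neurons or their surroundings. Mt3, a brain metallothionein that binds zinc and copper, read 12.42, 12.57 and 12.39 in KO, and no WT array lay below 12.79 (-0.57 ± 0.15). Pak7, a kinase of neurons, read 8.26, 8.56 and 8.30 against 9.11, 8.69 and 8.95 (-0.63 ± 0.15). Spock1, a proteoglycan (-0.70 ± 0.19), Chst2, a sulfotransferase for extracellular sugars (-0.58 ± 0.16), Cnot7, a subunit of the deadenylase that shortens mRNA tails (-0.43 ± 0.11), Sfxn3, a mitochondrial carrier (-0.46 ± 0.12), and Vmac (-0.63 ± 0.15) made up the rest. In Het the same WT arrays gave -0.56 for Mt3, -0.63 for Pak7, -0.59 for Spock1, -0.74 for Chst2 and -0.49 for Cnot7. For these 5 genes the WT arrays stood above both other genotypes, and they were the all-female group. The model's male minus female term for these genes lay between 0.11 and 0.23. With no WT male of 6 months, sex and genotype cannot be fully told apart at this age. Their differences at 2 months lay between -0.15 and 0.05 and at 9 months between -0.25 and 0.09 (between -0.12 and -0.02 and between -0.47 and 0.15 without the arrays in doubt).

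**Figure D4:**
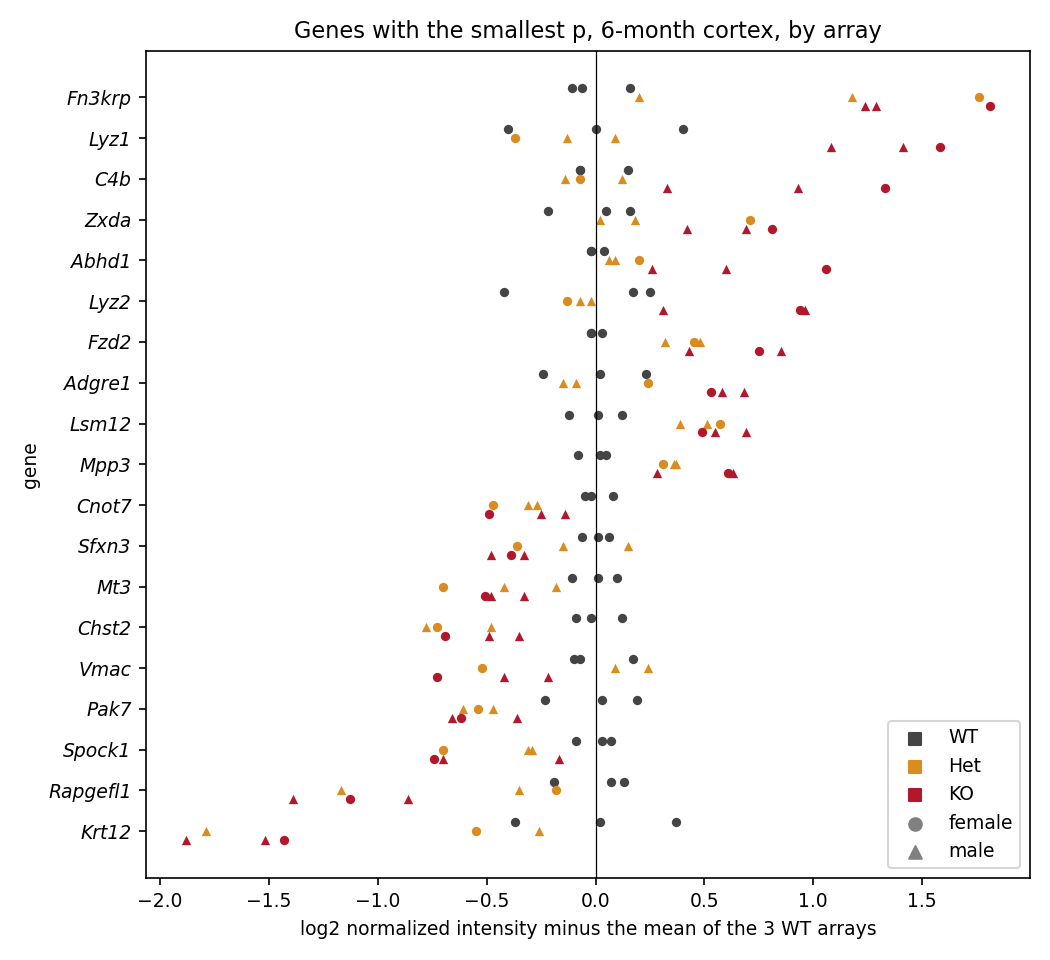
Each cortex array of 6 months for the 19 named genes, as log2 normalized intensity minus the mean of the WT arrays, coloured by genotype, with circles for females and triangles for males. Het arrays lie with WT for C4b, Lyz1 and Lyz2 and with KO for Lsm12, Pak7 and Chst2.

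Neuronal and myelin genes had medians below 0 with no called member. Of 9 genes of the glutamatergic synapse, 8 were below 0, with a median of -0.42 in KO and -0.48 in Het. Slc17a7, the vesicular glutamate transporter, read 12.10, 13.25 and 12.48 in KO and 13.06, 13.30 and 13.08 in WT (-0.65 ± 0.23). KO replicate 2 lay at the WT level and the other KO arrays below it, and the same held for Nrgn (12.30, 12.89 and 12.30 against 12.90, 12.78 and 12.91) and for Mef2c. Without WT replicate 1 the median in KO was -0.27. The mean level of the list was 11.13, 11.48 and 11.21 in KO and from 11.51 to 11.52 in WT. Its median was -0.10 at 2 months and -0.13 at 9 months (-0.06 and -0.05 without the arrays in doubt). General neuronal genes had a median of -0.06 over 17, with all KO arrays below WT in 4 (23.5%, against 5.70% of all genes). Syn1, the synapsin of vesicles, gave -0.35 ± 0.13, and Map2, of dendrites, -0.83 ± 0.31. The 11 genes of inhibitory neurons had a median of -0.01. Of 13 myelin genes, 12 were below 0, Mal among them at -0.45 ± 0.19, and Mbp, the basic protein, was the exception at 0.28 ± 0.14. Their median was -0.27, and from -0.43 to -0.09 under the alternatives. The mean level of the list overlapped between the groups (10.50, 10.28 and 10.31 in KO; 10.50, 10.69 and 10.40 in WT), and the arrays of KO replicate 1 and WT replicate 3, which shared a slide, gave a median of 0.17. Immediate early genes, which respond to activity within minutes, ran from 8.99 to 10.26 in KO and from 9.34 to 10.14 in WT as a mean over 14 genes.

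Markers of neighbouring tissue varied between the arrays. The mean of the choroid plexus list was 8.95, 7.94 and 8.17 in KO and 8.17, 8.85 and 7.75 in WT, and that of the thalamus list 9.80, 8.62 and 8.64 in KO and 8.61, 8.99 and 8.55 in WT. KO replicate 1 and WT replicate 2 were thus the highest in choroid plexus markers, and KO replicate 1 stood apart in thalamus markers. The cortex marker list was measured at 9.52, 9.66 and 9.64 in KO and 9.76, 9.67 and 9.76 in WT, and the highest KO array lay just below the lowest WT array. The part of these in the results was not tested gene by gene; with KO replicate 1 and WT replicate 2 both left out, Grn was still the only probe called.

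KO replicate 3 and WT replicate 2, both female, shared a slide, as did KO replicate 1, a male, and WT replicate 3, a female. Since the named genes were chosen on these arrays, the pairs describe them and test nothing. All 10 named genes above WT were higher in KO in both pairs, and all 9 below WT were lower. C4b differed by 1.39 in the female pair and 0.78 in the other, Lyz1 by 1.58 and 1.01, Fzd2 by 0.77 and 0.40, and Lyz2 by 0.69 and 0.14. The choroid plexus list differed by -0.66 and 1.21 in the same pairs.

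The arrays of other ages give the nearest repeat with other animals. At 2 months there were 6 KO and 6 WT arrays, with 3 females and 3 males in each group. At 9 months the 3 WT animals were all male, and the 3 KO animals were 2 males and 1 female by label. The values of 9 months therefore also lean on the fitted sex term. At 2 months 15 of 12848 probes were called (0.117%) and at 9 months 7 (0.0545%). Without the arrays high in cerebellum markers 11 were called at 2 months, with Fzd2, Lsm12, Krt12, Rapgefl1, Myl4 and Stac2 among them and Ttc39a, Mrps23 and Coil no longer so. Without the animal of doubtful sex 1 was called at 9 months, which was Grn. By the probe called at 2 months, 13 genes other than Grn were called there, of which 12 had the same direction at 6 months. In 8 the 6-month groups lay apart in that direction, beside 4.66% of all genes above WT and 5.70% below. The 8 genes include Ttc39a (0.39 ± 0.12 at 6 months), Stac2 (-0.41 ± 0.14) and Mrps23 (-0.48 ± 0.19), beside Fzd2, Lsm12, Krt12, Rapgefl1 and Myl4. Of these, Stac2, Mrps23, Fzd2, Lsm12, Krt12, Rapgefl1 and Myl4 lie on chromosome 11, as Grn does. The agreement with 2 months thus rests mostly on genes of Grn's own chromosome, which holds 775 other tested genes, beside 8208 on other chromosomes. Coil gave 0.02 ± 0.14 at 6 months by the probe called at 2 months and -0.14 by its other probe. Of 6 genes called at 9 months, 6 had the same direction at 6 months and 5 had groups apart in that direction, beside the same 4.66% and 5.70% of all genes. Of the 931 genes with groups apart at 6 months, 57.3% had the same sign at 2 months and 63.5% at 9 months, beside 52.9% and 57.5% of all 8984 genes. Without the arrays in doubt the shares were 53% and 66.5%, beside 50% and 62.7% of all genes. Among the 10 named genes above WT, 8 had the same sign at 2 months and 9 at 9 months, and among the 9 below, 8 and 7 (8, 7, 8 and 8 in that order without the arrays in doubt). No probe passed the test of a different KO effect at 6 months than at 2 months (limma; 0 called, 765 at an unadjusted p of 0.05) or at 9 months (0 called, 274 unadjusted).

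**Figure D5:**
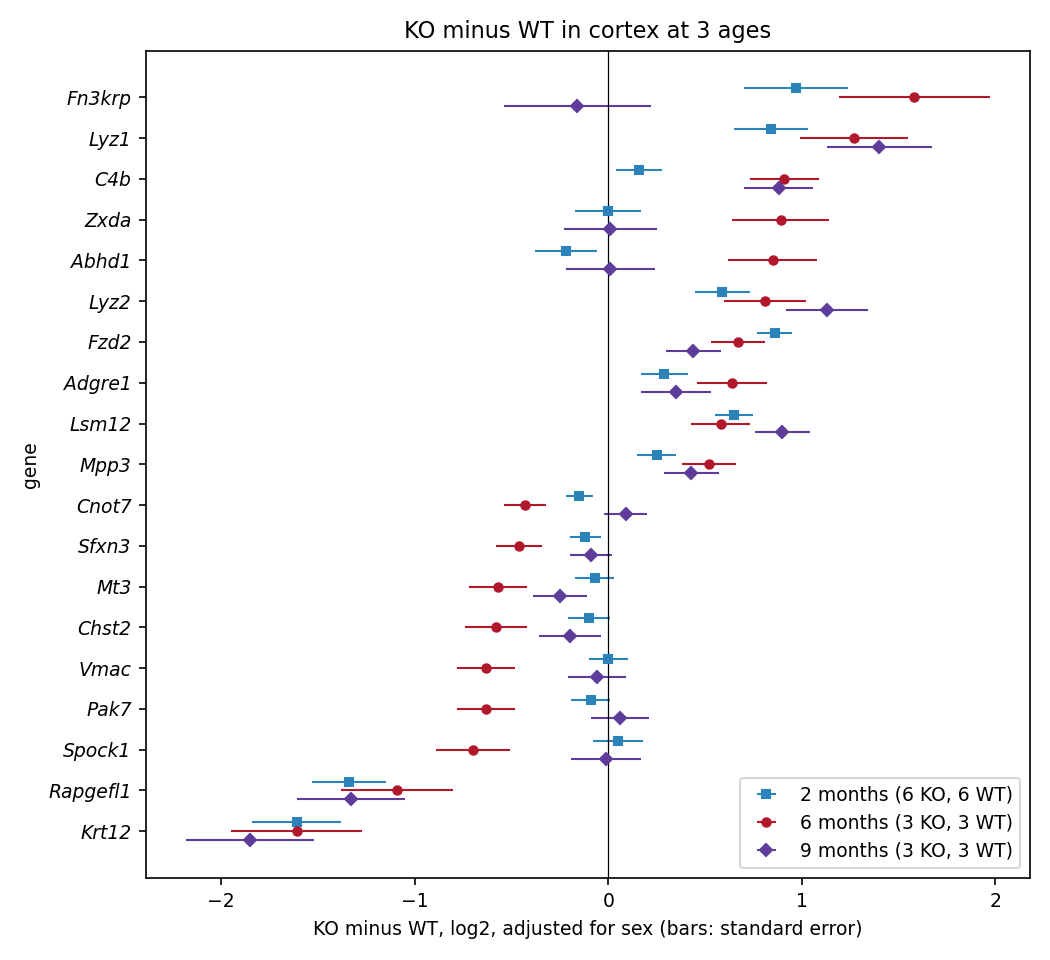
KO minus WT in cortex (log2, adjusted for sex) at 2, 6 and 9 months for the 19 named genes, with bars of 1 SE. Of the 10 genes above WT 7 keep 1 side at all 3 ages, and of the 9 below 6 do. Lyz1, Lyz2, Lsm12, Krt12 and Rapgefl1 are among them. C4b is at 0.16 at 2 months and at 0.91 and 0.88 later, a difference that did not pass the test.

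In Het cortex of 6 months 0 probes were called against the same WT arrays (limma; 1415 at an unadjusted p of 0.05). The hippocampus and cerebellum of 6 months came from the same animals as the cortex, so they are no independent repeat. In hippocampus, with 3 KO and 2 WT arrays, 1 probe was called (0.00778%), and in cerebellum 359 (2.79%). C4b gave 0.62 ± 0.31 in hippocampus and rose in cerebellum by 0.95 ± 0.25 (adjusted p = 0.046). Lyz1 gave 0.38 ± 0.56 in hippocampus and rose in cerebellum by 1.41 ± 0.29 (adjusted p = 0.031). Lsm12 gave 0.62 ± 0.12 in hippocampus and rose in cerebellum by 0.72 ± 0.16 (adjusted p = 0.032), while Krt12 gave -1.42 ± 0.47 and 0.18 ± 0.54. Fn3krp gave 1.49 ± 0.38 in hippocampus and rose in cerebellum by 1.37 ± 0.36 (adjusted p = 0.043). Mt3 and Spock1 had values above 0 in hippocampus (0.60 ± 0.17 and 0.68 ± 0.27) and below 0 in cortex. The test of a difference in KO effect between cortex and hippocampus called 0 probes (limma; 1591 unadjusted), with Mt3 and Spock1 at adjusted p = 0.056, and that between cortex and cerebellum called 0 (959 unadjusted).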

How the data were processed

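Total RNA of mouse brain regions was hybridised to Illumina MouseRef-8 arrays, 99 in all from 36 animals on 13 slides. The deposited table held bead-summary intensity values per probe, left by the authors without normalization between arrays; the tool BeadStudio is named per the submitters' processing notes, with no version, and its background setting is not given in the sources used here. A second deposited table held log2 values, which equalled the quantile-normalized log2 intensities without background correction (largest difference 4.97e-14) and served as an alternative. Of 25697 probes, 23978 had 1 gene symbol and 1719 none; 23962 were matched by gene ID. Intensities were corrected with normexp (offset 50), converted to log2 and quantile-normalized across the whole series with limma 3.58.1 in R 4.3.3. A probe was tested when its mean over the 35 cortex arrays lay above the 50th percentile (6.80). The model held the 9 genotype-by-age cortex groups and sex (lmFit, eBayes with trend), with Benjamini-Hochberg adjustment over all tested probes and a threshold of 0.05, two-sided. The fit was tested on simulated data. Hippocampus and cerebellum were fitted alone, and differences between regions over all arrays with the animal as a random block (statmod 1.5.0). Named were Grn and, since fewer than 10 genes passed in a direction, the genes with the smallest p among those with KO and WT groups apart, up to 10 each way, and up to 4 members of each list; genes outside this rule are named where they make up a count or were called at 2 or 9 months. The named set and the 30 gene lists were chosen with earlier results of these data known. A gene stands by its probe with the smallest p. Each replicate was its own animal, per the labels, and precision is limited by how many arrays there are. Alternatives changed the scaling, background, filter, arrays, sex, slide, weights and replicates.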

Additional observations from a re-analysis of the deposited data

How the results depend on the processing

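Grn was called under 23 of 24 alternatives; under the stricter filter (75th percentile) it was not among the probes tested and 0 were called. The KO count of 1 became 3 with median scaling (Grn, Fzd2 and Fn3krp), 3 with females only (Grn, C4b and Irs2), 8 with slide as a fixed block (C4b among them) and 1584 with array weights. Those weights ran from 0.335 for KO replicate 2 to 4.24 for WT replicate 3; the cause of the larger count was not tested. Leaving out 1 array at a time gave 1 to 13 calls, with 13 without KO replicate 2 (Lyz1 and C4b among them), 2 without KO replicate 1 (Grn and Fzd2) and 2 without WT replicate 1 (Grn and Ttc27). The replicate numbers did not pair the animals: same-numbered KO and WT arrays had deviations correlated at 0.306, 0.49 and 0.0105, and not every array correlated best with its own number. The replicate block on the 6 arrays called 13 (Grn, Lyz1, Lyz2, Krt12, Rapgefl1 and Fn3krp among them). For the KO effect at 6 against 2 months the count of 0 became 1 with median scaling, 1 with slide as a fixed block and 82 with array weights, and 0 to 1 when an array was left out (1 without WT replicate 1). It was 0 against 9 months throughout. For Het the count of 0 became 16 with median scaling, 1737 with array weights, 0 to 1 when an array was left out (1 without WT replicate 2) and 1 with KO replicate 1 and WT replicate 2 both left out, a setting chosen after seeing the data. C4b was called under 4 of the 24 alternatives. No named gene turned its direction under any alternative run. The medians of the activated microglia and complement lists stayed above 0 and that of the glutamatergic synapse list below 0 under every alternative. A steady sign was not particular to these lists. Markers of hippocampus (0.13 to 0.29) and cerebellum (0.03 to 0.23) kept theirs too. Among the lists that changed sign were immediate early genes (-0.25 to 0.49), choroid plexus (-0.19 to 0.60) and thalamus (-0.05 to 0.53). Single genes near background, Grn in KO among them, are limited by signal over background.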
